A study of Homo sapiens with 12 samples.

Results

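Collagen chains are modified inside the cell by prolyl and lysyl hydroxylases before they are secreted, and 10 genes of this machinery were followed here across 12 RNA sequencing libraries of KG1a cells. The genes were chosen by symbol, as 10 of the 28395 rows of the expression table. They are the prolyl 4-hydroxylase alpha subunits P4HA1, P4HA2 and P4HA3, the beta subunit P4HB, the transmembrane prolyl hydroxylase P4HTM, the lysyl hydroxylases PLOD1, PLOD2 and PLOD3, and LOX and LOXL2. The last pair are lysyl oxidases, not hydroxylases, so the set is wider than its name. All 10 were tested, as were 15057 genes in all, a gene being tested when 3 or more libraries held a value of 10 or more. P4HA3 reached 10 in 7 of 12 libraries, P4HA2 in 11 and the other 8 genes in 12.

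KG1a, an established human line, derives from acute myeloid leukaemia and keeps features of blood progenitors such as CD34. The wild-type cells were sorted into a CD34-positive fraction dim for the surface proteins CD38 and CLL-1 (dim) and a CD34-positive fraction bright for both (bright), and each was taken from normoxia or from 3% oxygen (hypoxia), in RPMI medium with 20% serum. Crossing fraction and oxygen gave 4 groups of 3 libraries, and the study asked how oxygen acts on both fractions. The labels do not give the duration of hypoxia, nor whether replicates were separate cultures. The p-values therefore set differences against a spread between libraries that may be only technical, and the cells are 1 line.

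Collagen prolyl 4-hydroxylase is a tetramer in the endoplasmic reticulum in which the alpha subunits carry the catalytic site and P4HB, also known as protein disulphide isomerase, keeps them soluble. The hydroxyproline it makes holds the collagen triple helix together at body temperature, and the hydroxylysine made by the PLOD enzymes serves sugar attachment and cross-linking. These hydroxylases use molecular oxygen, iron and 2-oxoglutarate, whereas LOX and LOXL2 are secreted copper enzymes that oxidise lysines outside the cell. Several genes of the set, P4HA1, P4HA2, PLOD2 and LOX among them, are textbook targets of the hypoxia-inducible factors (HIF), which bind DNA at a short core motif.

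Promoters of 4 genes are shown because P4HA1 and PLOD1 passed as higher in bright than in dim cells under hypoxia, while PLOD2 and LOX, which hold more copies of ACGTG, 1 form of the HIF core, passed in no comparison. Each is the RefSeq sequence of GRCh38.p14 from 250 bases before to 50 bases after the annotated start, written 5′ to 3′ on the strand of the gene. Capitals mark ACGTG or its reverse complement CACGT. P4HA1 is at chr10:73096817-73097116 (minus strand), PLOD1 at chr1:11934467-11934766 (plus strand), PLOD2 at chr3:146161135-146161434 (minus strand) and LOX at chr5:122078210-122078509 (minus strand).
P4HA1: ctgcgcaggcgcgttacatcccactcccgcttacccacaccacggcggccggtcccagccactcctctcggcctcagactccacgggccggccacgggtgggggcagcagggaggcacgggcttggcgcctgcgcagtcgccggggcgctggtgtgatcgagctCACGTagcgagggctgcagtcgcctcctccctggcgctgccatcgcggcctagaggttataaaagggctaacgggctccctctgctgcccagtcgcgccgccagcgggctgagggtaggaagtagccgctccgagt
PLOD1: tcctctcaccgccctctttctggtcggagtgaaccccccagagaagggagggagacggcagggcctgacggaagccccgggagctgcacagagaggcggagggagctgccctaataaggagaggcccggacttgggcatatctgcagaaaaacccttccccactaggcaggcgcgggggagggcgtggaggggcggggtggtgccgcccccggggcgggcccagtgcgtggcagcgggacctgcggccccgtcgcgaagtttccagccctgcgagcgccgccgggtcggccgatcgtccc
PLOD2: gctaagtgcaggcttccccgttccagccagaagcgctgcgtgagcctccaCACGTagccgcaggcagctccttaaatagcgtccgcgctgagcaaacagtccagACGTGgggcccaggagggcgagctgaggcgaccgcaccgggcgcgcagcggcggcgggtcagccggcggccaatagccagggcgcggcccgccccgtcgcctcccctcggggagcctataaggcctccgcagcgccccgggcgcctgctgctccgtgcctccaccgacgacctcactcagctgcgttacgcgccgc
LOX: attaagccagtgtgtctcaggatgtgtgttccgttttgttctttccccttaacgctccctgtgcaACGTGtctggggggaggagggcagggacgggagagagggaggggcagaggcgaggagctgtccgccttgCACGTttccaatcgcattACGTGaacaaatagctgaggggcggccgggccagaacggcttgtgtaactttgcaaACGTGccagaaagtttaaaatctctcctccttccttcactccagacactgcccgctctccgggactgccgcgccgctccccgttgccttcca
P4HA1 held 1 match, 86 bases before the RefSeq start, PLOD2 held 2, at 200 and 146 bases before it, and LOX held 4, at 185, 116, 98 and 42 bases before it. Promoters of 8 of the 10 genes were matched in the RefSeq table, and PLOD1, P4HA2, P4HB, P4HTM and PLOD3 had no match in their windows. In all, 3 of 8 windows (37.5%) held the motif, against 5900 of 27305 windows of the same length in the table (21.6%) and 3064 of 11643 windows of tested genes (26.3%). Only ACGTG and its reverse complement were searched. The letters GCGTG, another form of the HIF core, were not counted and occur in the PLOD1 and PLOD2 windows shown. A match is only a run of letters, and factor binding was not measured.

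The values of a library, already divided by a size factor, added up to 31828256 to 32560463 units, which does not measure depth. Their spacing gave an estimate of 25200000 (hypoxic bright replicate 2) to 39500000 (normoxic dim replicate 1) counted reads, with 1 read worth 0.815 to 1.273 units. CD34 (17184 to 32370), the leukocyte gene PTPRC (9333 to 14336) and CD7 (2418 to 4658) were high in every library. On the same list of 8 KG1a progenitor markers, KIT (14 to 222), CD33 (36 to 187), CD38 (2 to 161), HLA-DRA (5 to 59) and CLEC12A (9 to 40) were far lower. CLEC12A, the gene of CLL-1, overlapped between fractions at both oxygen levels. In normoxia 4 of 8 passed as higher and 2 as lower in bright cells, against 2.88% and 3.79% of all genes. Under hypoxia 4 passed as higher and 1 as lower, against 12.9% and 13.6%. Libraries differed in markers of other cell types. The sum of 16 airway epithelium markers ran from 55 to 20293, highest in hypoxic dim replicate 2 and normoxic bright replicate 2. The sum of 16 skeletal muscle markers ran from 282 to 4652, highest in normoxic dim replicate 1 and normoxic bright replicate 1. In bulk RNA, fewer cells of a type and less RNA per cell cannot be told apart.

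Set per kilobase of transcript, the mean level over the 12 libraries fell from P4HB (7714 units per kilobase) through PLOD1 (1302), P4HA1 (550.4), PLOD2 (403), P4HTM (192) and PLOD3 (165) to LOXL2 (49.1), P4HA2 (36.9), LOX (31.1) and P4HA3 (8.04). P4HB stood clear of PLOD1, PLOD2 clear of P4HTM and PLOD3 clear of LOXL2, with library ranges that did not overlap. The ranges of all other neighbours in this order overlapped, though PLOD1 was above P4HA1 in each of the 12 libraries and P4HTM above PLOD3 in 10.

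**Figure D1:**
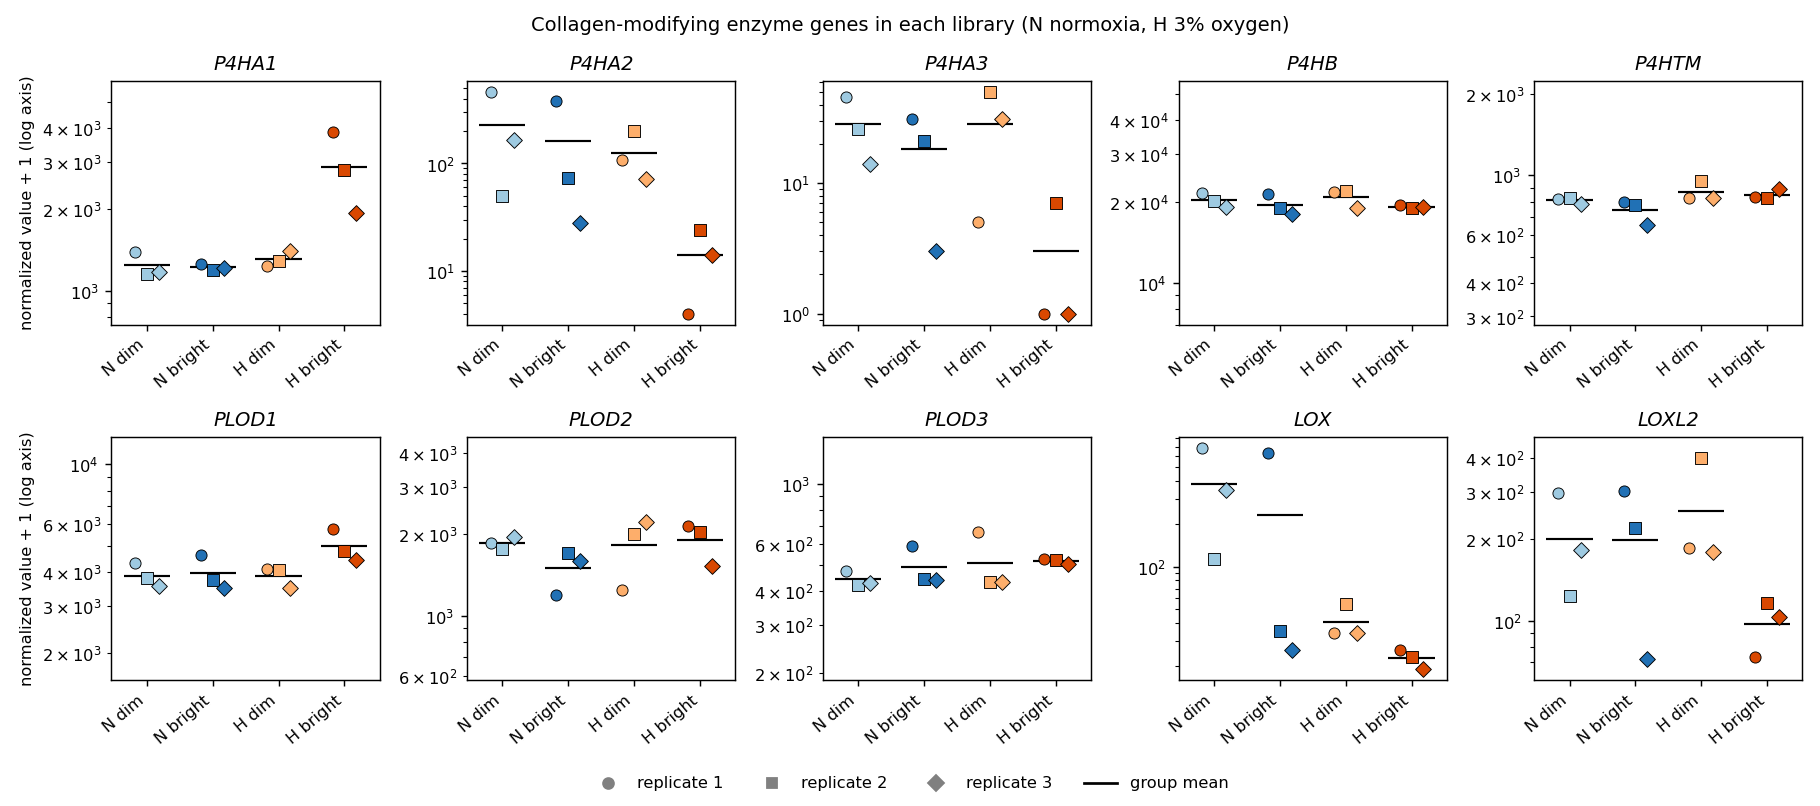
Normalized value plus 1 of each of the 10 genes in the 12 libraries, on a log axis that differs between panels; N is normoxia, H is 3% oxygen, marker shapes give the replicate number and the bar is the group mean. P4HA1 is highest in the 3 hypoxic bright libraries, between 1945 and 3865, whereas P4HB, P4HTM and PLOD3 stay within narrow ranges and P4HA2, P4HA3, LOX and LOXL2 spread widely within groups.

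P4HA1 (gene ID 5033, chr10:73007217-73096974, minus strand) encodes the main alpha subunit of collagen prolyl 4-hydroxylase in most tissues. Its normalized values were 1389, 1154 and 1174 in the normoxic dim libraries and 1255, 1188 and 1216 in the normoxic bright libraries. They were 1231, 1291 and 1403 in hypoxic dim cells and 3865, 2803 and 1945 in hypoxic bright cells. The 3 hypoxic bright libraries lay above the other 9, which all fell between 1154 and 1403 and among the 3 the highest was 1.99-fold the lowest. The hypoxic bright mean was 2871 ± 962 (SD, n = 3 here and in every group), against 1308 ± 87.3 in hypoxic dim, 1220 ± 33.7 in normoxic bright and 1239 ± 130 in normoxic dim cells.

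With limma on log2(value + 1), P4HA1 was 2.11-fold higher in bright than in dim cells under hypoxia (log2 difference 1.08 ± 0.18, standard error, Benjamini-Hochberg adjusted p = 0.00116). Between hypoxia and normoxia it rose 2.26-fold in bright cells (1.18 ± 0.18, adjusted p = 0.0108). In dim cells the same log2 difference was 0.08 ± 0.18 (adjusted p = 0.853), with a 95% interval from -0.30 to 0.47, and between bright and dim cells in normoxia it was -0.02 ± 0.18 (adjusted p = 0.971). The test of the difference itself put the hypoxia effect 1.10 ± 0.25 log2 units higher in bright than in dim cells (adjusted p = 0.0410, interval 0.55 to 1.64).

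The bright against dim call under hypoxia held when any 1 library was left out (0.84 to 1.33, adjusted p 0.000127 to 0.00712). So did the hypoxia call in bright cells (0.94 to 1.43, adjusted p 0.000302 to 0.0485), which without the pair of libraries highest in airway markers had an adjusted p of 0.0829 at 1.16. The difference between fractions kept its direction but lost its call when normoxic dim replicate 1, 2 or 3, normoxic bright replicate 2 or 3, replicate 2 of hypoxic dim or replicate 1 or 2 of hypoxic bright was left out (adjusted p 0.0538 to 0.102).

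P4HA2 (gene ID 8974, chr5:132192009-132227863, minus strand), another alpha subunit, differed in the opposite direction. Its values were 461, 49 and 165 in normoxic dim, 382, 73 and 27 in normoxic bright, 106, 200 and 70 in hypoxic dim and 3, 23 and 13 in hypoxic bright libraries. Every hypoxic bright library lay below the other 9, while the other 3 groups overlapped and replicates within them differed by up to 14.1-fold. P4HA2 was 10.4-fold lower in bright than in dim cells under hypoxia (-3.38 ± 0.94, adjusted p = 0.0187, means 13.0 and 125). The hypoxia effect in bright cells was -3.07 ± 0.94 and did not pass (adjusted p = 0.141), nor did the difference between fractions (-2.63 ± 1.33, adjusted p = 0.269). The call was lost without hypoxic dim replicate 2 (-2.98, adjusted p = 0.0750) or hypoxic bright replicate 1 (-2.65, adjusted p = 0.0901).

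P4HA3 (gene ID 283208, chr11:74266649-74311676, minus strand), a further alpha subunit, was near the detection limit. It had values of 45, 25 and 13 in normoxic dim, 30, 20 and 2 in normoxic bright, 4, 49 and 30 in hypoxic dim and 0, 6 and 0 in hypoxic bright libraries. The hypoxic bright library at 6 overlapped with the hypoxic dim library at 4. A count of 0 allows up to 3 reads by counting error alone, which is 2.99 units in hypoxic bright replicate 1 and 3.28 in replicate 3. P4HA3 passed as lower in bright than in dim cells under hypoxia (-3.37 ± 1.07, adjusted p = 0.0336). The size of this difference depends on the pseudocount, being -1.46 with a pseudocount of 10 (adjusted p = 0.0702). The call was also lost without hypoxic dim replicate 2 or 3 or hypoxic bright replicate 1 or 3 (-3.05 to -2.70, adjusted p 0.0813 to 0.134).

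The make-up of the alpha subunit transcripts is given as a description. Summed per kilobase, the 3 alpha subunits stood at 610, 407 and 441 units in normoxic dim, 537, 423 and 412 in normoxic bright, 440, 506 and 498 in hypoxic dim and 1283, 939 and 649 in hypoxic bright libraries. P4HA1 made up 99.0% to 99.9% of that sum in hypoxic bright libraries, and 75.5% to 97.9% in the other 9. P4HA2 made up 21.3% in normoxic dim replicate 1 and 20.1% in normoxic bright replicate 1, its highest shares, and at most 0.691% in hypoxic bright cells. Within each normoxic group the P4HA2 share differed more between libraries than the 4 group means did.

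P4HB (gene ID 5034, chr17:81843158-81860668, minus strand) is the beta subunit and has many other partners as a disulphide isomerase. Its values were 21466, 20078 and 19062 in normoxic dim, 21370, 18882 and 17953 in normoxic bright, 21639, 21816 and 18927 in hypoxic dim and 19499, 18881 and 19059 in hypoxic bright libraries. The groups overlapped in each comparison. None of the 5 comparisons passed, and the log2 differences lay between -0.12 and 0.04 with standard errors of 0.08, or 0.11 for the difference of effects. For hypoxia in bright cells the 95% interval ran from -0.19 to 0.16, which leaves out a change of the size of that in P4HA1. The ratio of P4HB to summed alpha subunits, both per kilobase, was 5.90, 7.80 and 11.4 in hypoxic bright libraries and 13.7 to 19.1 in the other 9, so it was lowest in the 3 hypoxic bright libraries.

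**Figure D2:**
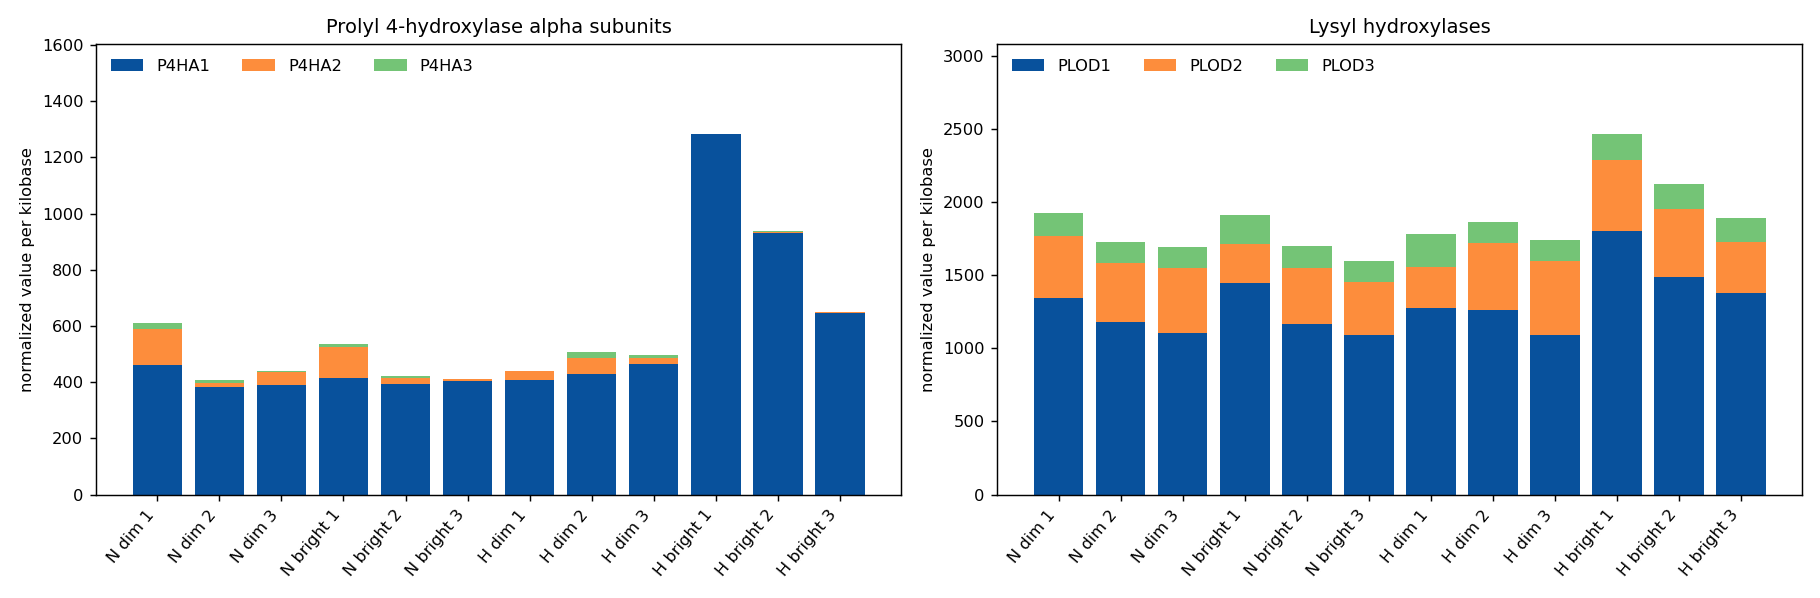
Stacked normalized values per kilobase of the 3 prolyl 4-hydroxylase alpha subunits (left) and the 3 lysyl hydroxylases (right) in each library; N is normoxia, H is 3% oxygen, and bars start at 0. The alpha subunit stack is tallest in the hypoxic bright libraries (649 to 1283) and there is almost all P4HA1. The lysyl hydroxylase stack varies between 1601 and 2466. It is tallest in hypoxic bright 1 and 2 (2466 and 2126), while hypoxic bright 3 (1895) lies below normoxic dim 1 (1928).

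P4HTM (gene ID 54681, chr3:48989100-49007149, plus strand) encodes a membrane-anchored prolyl hydroxylase of the endoplasmic reticulum that can act on HIF alpha subunits and has no established role on collagen. It had values of 817, 820 and 784 in normoxic dim, 796, 774 and 656 in normoxic bright, 826, 951 and 822 in hypoxic dim and 833, 823 and 888 in hypoxic bright libraries. All 6 hypoxic libraries lay above all 6 normoxic ones. The margins were small, with log2 differences of 0.10 ± 0.09 in dim cells (adjusted p = 0.621) and 0.20 ± 0.09 in bright cells (adjusted p = 0.341), and neither passed.

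Among the lysyl hydroxylases, PLOD1 (gene ID 5351, chr1:11934667-11975542, plus strand), which acts mainly on lysines of the triple helix, was the most abundant. Its values were 4303, 3784 and 3536 in normoxic dim, 4624, 3726 and 3487 in normoxic bright, 4081, 4045 and 3486 in hypoxic dim and 5765, 4759 and 4408 in hypoxic bright libraries. The hypoxic bright libraries lay above all hypoxic dim ones but overlapped with normoxic bright replicate 1. PLOD1 was 1.28-fold higher in bright than in dim cells under hypoxia (0.36 ± 0.12, adjusted p = 0.0466). The hypoxia effect in bright cells was of like size (0.34 ± 0.12) and did not pass (adjusted p = 0.214), and the difference between fractions was 0.34 ± 0.17 (adjusted p = 0.277). The call lay close to the threshold. It was lost without normoxic dim replicate 2 or 3, normoxic bright replicate 2, replicate 2 or 3 of hypoxic dim, or replicate 1 or 2 of hypoxic bright (0.25 to 0.39, adjusted p 0.0556 to 0.198), and under both other scalings (0.33 and 0.35, adjusted p 0.0724 and 0.0561).

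PLOD2 (gene ID 5352, chr3:146069436-146161495, minus strand), the enzyme for the telopeptide lysines from which cross-links form, passed in no comparison. Its values were 1861, 1763 and 1961 in normoxic dim, 1193, 1700 and 1598 in normoxic bright, 1241, 2010 and 2223 in hypoxic dim and 2143, 2039 and 1529 in hypoxic bright libraries. Both hypoxic groups spanned a wider range than the normoxic dim group, and the normoxic bright libraries lay below the normoxic dim ones without overlap (-0.33 ± 0.20, adjusted p = 0.412). For hypoxia in bright cells the log2 difference was 0.35 ± 0.20 (adjusted p = 0.415) with an interval of -0.08 to 0.77.

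PLOD3 (gene ID 8985, chr7:101205977-101217730, minus strand) encodes a lysyl hydroxylase that also adds sugars to hydroxylysine. It had values of 477, 421 and 428 in normoxic dim, 590, 444 and 440 in normoxic bright, 665, 434 and 434 in hypoxic dim and 528, 522 and 506 in hypoxic bright libraries. Replicate 1 was the highest in every group. The hypoxic bright libraries lay above all normoxic dim ones, and the other groups overlapped. Its log2 differences ran from -0.09 to 0.18, none of which passed. PLOD1 made up 62.6% to 75.5% of the summed lysyl hydroxylase level per kilobase in the 12 libraries.

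LOX (gene ID 4015, chr5:122063195-122078360, minus strand) encodes lysyl oxidase, which starts the cross-linking of collagen and elastin fibres. Its values were 686, 112 and 346 in normoxic dim, 626, 34 and 25 in normoxic bright, 33, 54 and 33 in hypoxic dim and 25, 22 and 18 in hypoxic bright libraries. All 6 hypoxic libraries were at 54 or below, while 4 of the 6 normoxic libraries were above it. LOX, known as a gene that hypoxia raises, was thus lower on average at 3% oxygen, with log2 differences of -2.91 ± 0.93 in dim cells (adjusted p = 0.163, no overlap) and -1.88 ± 0.93 in bright cells (adjusted p = 0.352), neither of which passed. Without normoxic bright replicate 1, the library at 626, the bright against dim difference in normoxia was -3.31 (adjusted p = 0.00255) and the hypoxia difference in dim cells was -2.91 (adjusted p = 0.0221), so that both passed. In the other 11 leave-one-out fits neither passed, with adjusted p up to 0.623 and 0.379. Without the pair of libraries highest in airway markers these differences were -1.23 (adjusted p = 0.628) and -3.14 (adjusted p = 0.411).

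LOXL2 (gene ID 4017), a lysyl oxidase that acts on basement membrane collagen, had values of 297, 122 and 181 in normoxic dim, 300, 220 and 71 in normoxic bright, 185, 400 and 179 in hypoxic dim and 72, 115 and 102 in hypoxic bright libraries. The 3 hypoxic bright libraries lay below all hypoxic dim and normoxic dim ones and overlapped with the normoxic bright group, whose replicate 3 was at 71. Under hypoxia the bright against dim difference was -1.31 ± 0.48 and just missed the threshold (adjusted p = 0.0579). It passed without normoxic bright replicate 1 (adjusted p = 0.0350) or normoxic bright replicate 3 (adjusted p = 0.0166), at an unchanged estimate. In the other 10 leave-one-out fits it did not pass. Over all 12 the estimate ran from -1.515 to -0.937, with adjusted p up to 0.218. Without the pair of libraries highest in airway markers it was -0.937 (adjusted p = 0.236).

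Counted over the set, 4 of 10 genes passed for bright against dim under hypoxia, P4HA1 and PLOD1 higher and P4HA2 and P4HA3 lower. Of all 15057 genes tested, 26.5% passed there, 12.9% as higher and 13.6% as lower, so 4 of 10 is not far from the background. For hypoxia in bright cells 1 of 10 passed, P4HA1, against 0.837% of all genes, 0.478% as higher and 0.359% as lower. For the difference between fractions 1 of 10 passed, again P4HA1, against 2.36% of all genes, 1.1% as higher and 1.26% as lower. With limma, 0 of 10 passed for bright against dim in normoxia (6.66% of all genes passed, 2.88% higher and 3.79% lower, and 0 of 10 at an unadjusted p under 0.05) and 0 of 10 for hypoxia in dim cells (0.232% of all genes passed, 0.199% higher and 0.0332% lower, and 1 of 10, LOX, at an unadjusted p under 0.05). The median log2 difference of the 10 genes lay between -0.14 and 0.04 in the 5 comparisons, and that of all tested genes between -0.031 and 0.003. These comparisons share groups and are not independent of each other.

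The 4 calls under hypoxia depended on single libraries to different degrees. Without hypoxic dim replicate 2 or hypoxic bright replicate 1, 1 of 10 genes passed there, P4HA1, and without hypoxic dim replicate 3, 2 passed.

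**Figure D3:**
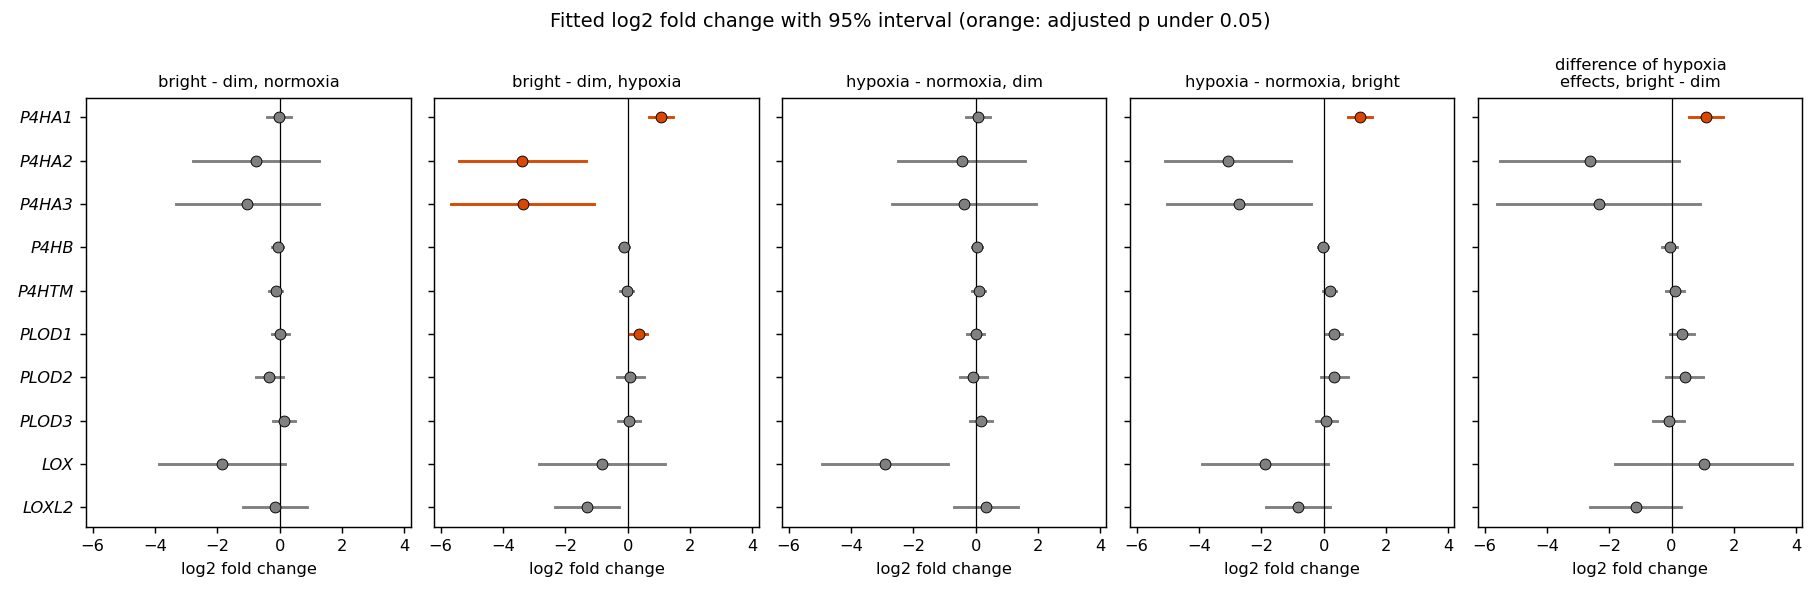
Fitted log2 fold change (points) with its 95% interval (lines) for the 10 genes in the 5 comparisons, orange where the adjusted p is under 0.05. P4HA1 stands above 0 in the 2 comparisons with hypoxic bright cells (1.08 and 1.18) and in the difference of effects (1.10). P4HB and P4HTM have the shortest intervals, and P4HA2, P4HA3, LOX and LOXL2 have long ones. PLOD3 has points near 0 but wider intervals, from -0.58 to 0.40 for the difference of effects.

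The genes whose pattern was most like that of P4HA1, among non-members with a mean of at least 100, were BNIP3 (Pearson r = 0.977 over 12 libraries, on the log2 scale), KDM3A (r = 0.97) and PLCH1 (r = 0.965). BNIP3 encodes a mitophagy receptor, KDM3A a histone H3 lysine demethylase and PLCH1 a phospholipase C. In the hypoxic bright libraries BNIP3 was at 1918, 1499 and 854, KDM3A at 3683, 3371 and 2640 and PLCH1 at 2790, 2658 and 2239, in the same order of libraries as P4HA1. That order, replicate 1 above 2 above 3, was shared by 17 of 19 hypoxia reference genes (89.5%), by 5 of the 10 genes of the set and by 3355 of 15057 tested genes (22.3%). For PLOD1 the most alike genes were ZER1 (r = 0.926) and the glycolytic ALDOA (r = 0.92) and GPI (r = 0.911). Within the set, P4HA1 and PLOD1 had r = 0.826. These correlations describe 12 libraries in which the group differences are included.

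P4HA2 was most like VIM (r = 0.961), the mesenchymal intermediate filament gene, and the basement membrane genes LAMB1 (r = 0.957) and COL4A2 (r = 0.95). VIM had values of 2241, 419 and 845 in normoxic dim, 1952, 438 and 240 in normoxic bright, 1120, 923 and 305 in hypoxic dim and 84, 135 and 115 in hypoxic bright libraries. Like P4HA2 it was high in replicate 1 of both normoxic groups and lowest in hypoxic bright cells. P4HA3 was most like FKBP10 (r = 0.977), a collagen chaperone, LAMB2 (r = 0.932) and the nuclear lamina gene LMNA (r = 0.931). Within the set P4HA2 had r = 0.887 with LOXL2, 0.839 with P4HA3 and 0.772 with LOX.

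**Figure D4:**
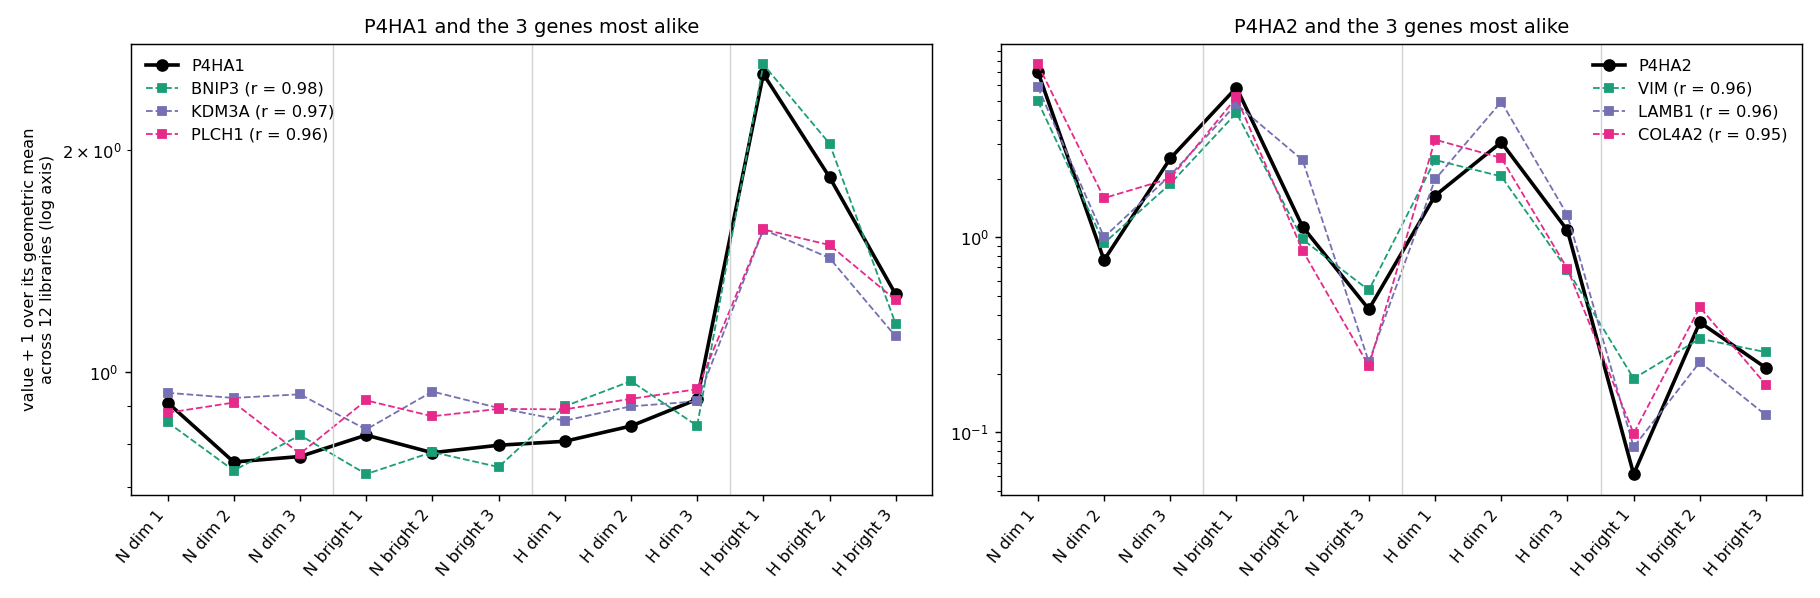
P4HA1 (left) and P4HA2 (right) in black with the 3 genes most like each in dashed colour; each value plus 1 is divided by its geometric mean over the 12 libraries, on a log axis, and lines only join the points of a gene. BNIP3, KDM3A and PLCH1 are high with P4HA1 in the 3 hypoxic bright libraries, and VIM, LAMB1 and COL4A2 share with P4HA2 the high values of replicate 1 in both normoxic groups and the low ones in hypoxic bright cells.

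Markers of other cell types varied between the same libraries as P4HA2, P4HA3, LOX and LOXL2. The sum of 15 fibroblast and mesenchymal markers was 26280, 6309 and 8417 in normoxic dim, 17812, 3194 and 2408 in normoxic bright, 9320, 4636 and 2139 in hypoxic dim and 2003, 2629 and 2258 in hypoxic bright libraries. Of its 14 tested genes 1, FN1, passed as lower in bright than in dim cells under hypoxia, against 13.6% of all genes, and SFRP2 was at 0 in every library. FN1, the fibronectin gene, was at 16589, 2672 and 4795 in normoxic dim, 10602, 1036 and 508 in normoxic bright, 6977, 2912 and 664 in hypoxic dim and 199, 459 and 295 in hypoxic bright libraries. In normoxia PDGFRA, a growth factor receptor gene (-1.05, adjusted p = 0.00498), and the fibrillin gene FBN1 (-0.93, adjusted p = 0.0378) passed as lower in bright cells, 2 of the 14, against 3.79% of all genes. The skeletal muscle sum was 4652, 1067 and 1815 in normoxic dim, 3252, 414 and 360 in normoxic bright, and between 282 and 556 in the 6 hypoxic libraries. With limma 0 of 14 tested muscle genes passed in any comparison (8 at an unadjusted p under 0.05 for hypoxia in dim cells, and 0 to 3 in the others). Of all genes 0.232% (hypoxia in dim cells) to 26.5% (bright against dim under hypoxia) passed. The muscle gene DES reached 2512 and 1757 in the normoxic replicates 1 in which LOX was at 686 and 626. P4HA2 and LOX were highest in the 2 libraries with the highest fibroblast and muscle sums, and LOXL2 and P4HA3 were highest in hypoxic dim replicate 2, the library with the highest airway sum. SCGB1A1, a defining airway gene, was at 0 in every library.

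Among the airway markers, 0 passed as higher and 6 of 13 tested as lower in bright against dim cells under hypoxia, against 12.9% and 13.6% of all genes. Their sums were 1133 to 20293 in hypoxic dim and 55 to 1194 in hypoxic bright libraries. In normoxia 5 of 13 passed as higher and 0 as lower in bright cells, against 2.88% and 3.79% of all genes, with sums of 174 to 223 in dim and 265 to 8176 in bright libraries. For the difference of the hypoxia effect 7 of 13 passed as lower, against 1.26% of all genes. The 6 neutrophil granule markers summed to 15138 in hypoxic dim replicate 1 and to between 44 and 1754 elsewhere. Of 5 tested, 0 passed as higher and 3 as lower in bright against dim cells under hypoxia, against 12.9% and 13.6% of all genes. PRTN3 (-6.11, adjusted p = 0.0111) and ELANE (-5.83, adjusted p = 0.0123) had the lowest adjusted p. For the difference of the hypoxia effect 1 of 5 passed as lower, PRTN3 (adjusted p = 0.0483), against 1.26% of all genes. Without the pair of libraries highest in airway markers, P4HA1 was 1.07 log2 units higher in bright than in dim cells under hypoxia (adjusted p = 0.0107), whereas P4HA2 (-2.98, adjusted p = 0.0951), P4HA3 (-2.70, adjusted p = 0.156) and PLOD1 (0.39, adjusted p = 0.0955) did not pass. Without the pair highest in muscle markers, a choice added after seeing the data, LOX passed as lower in bright than in dim cells in normoxia (-2.72, adjusted p = 0.00719) and as lower in hypoxic than in normoxic dim cells (-2.31, adjusted p = 0.0331). The part of these markers in the results was not tested.

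**Figure D5:**
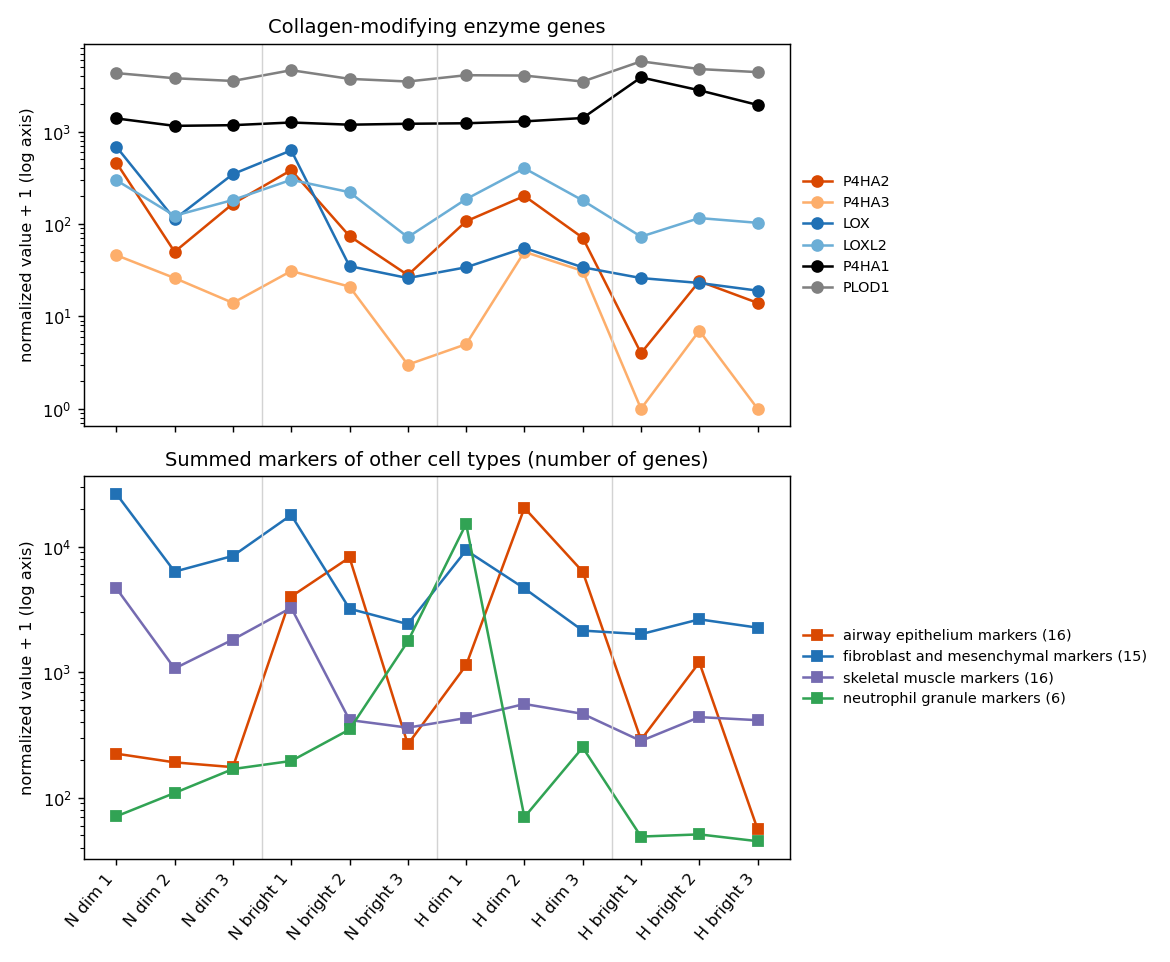
Top, normalized values plus 1 of 6 genes of the set in each library. Bottom, summed values of 4 marker lists with the number of genes in each, both on log axes, where lines only join points; P4HA2 and LOX peak in normoxic dim 1 and normoxic bright 1, where the fibroblast sum is 26280 and 17812, whereas P4HA1 and PLOD1 peak in hypoxic bright 1, where it is 2003.

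Other genes of collagen folding and modification were read from a list of 18, all tested. For bright against dim under hypoxia 1 was higher and 2 lower, against 26.5% of all genes. COLGALT2, which adds galactose to hydroxylysine, was higher (0.46 ± 0.11, adjusted p = 0.00912). PPIB, the prolyl isomerase of the collagen 3-hydroxylation complex, was lower, with means of 12256 and 16234 (-0.40 ± 0.08, adjusted p = 0.00318), as was the low-level prolyl 3-hydroxylase gene P3H3, with means of 5.33 and 44.7 (-2.81 ± 0.63, adjusted p = 0.00650). These 3 calls held when any 1 library was left out. With limma, 0 of 18 passed for hypoxia in dim cells, for hypoxia in bright cells or in normoxia (3, 3 and 2 at an unadjusted p under 0.05). Of all genes 0.232%, 0.837% and 6.66% passed there. For the difference between fractions 1 of 18 passed, P3H3 (-4.07 ± 0.89, adjusted p = 0.0363), against 2.36% of all genes. That call was lost without normoxic dim replicate 2 or 3, normoxic bright replicate 2 or 3, replicate 2 of hypoxic dim or any 1 hypoxic bright library (adjusted p 0.0522 to 0.0958).

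Of 13 other lysyl oxidases and procollagen proteinases, 9 were tested. LOXL3, a further lysyl oxidase, was higher in bright cells in normoxia (means 1199 and 775, 0.63 ± 0.09, adjusted p = 0.000710) and in hypoxia (means 1319 and 772, 0.77 ± 0.09, adjusted p = 0.000105), comparisons in which LOX and LOXL2 did not pass. Under hypoxia 2 of 9 were higher and 1 lower in bright cells, against 12.9% and 13.6% of all genes. Besides LOXL3 the higher one was ADAMTS3, a procollagen N-proteinase (0.63 ± 0.14, adjusted p = 0.00669). PCOLCE, an enhancer of the C-proteinase, was lower, with means of 4.33 and 37.3 (-2.81 ± 0.74, adjusted p = 0.0146), a call lost without hypoxic bright replicate 1 (-2.61, adjusted p = 0.0561). With limma, 0 of 9 passed for hypoxia in dim or bright cells or for the difference (3, 3 and 4 at an unadjusted p under 0.05). Of all genes 0.232%, 0.837% and 2.36% passed there.

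P4HB is also a disulphide isomerase, and 18 further isomerases and oxidases of the endoplasmic reticulum were tested. Under hypoxia 3 were higher and 1 lower in bright cells, against 26.5% of all genes in either direction. TXNDC5, an isomerase whose symbol lies in a read-through locus so that its counts are uncertain, was higher (means 400 and 204, 0.97 ± 0.20, adjusted p = 0.00373), as was the peroxiredoxin gene PRDX4 (0.28 ± 0.07, adjusted p = 0.0105). PDIA3, which folds glycoproteins, was lower (-0.24 ± 0.06, adjusted p = 0.0130). In normoxia the oxidase gene ERO1A was lower in bright cells (-0.54 ± 0.14, adjusted p = 0.0387). The PRDX4 call was lost without hypoxic bright replicate 2 (0.24, adjusted p = 0.0608), the PDIA3 call without hypoxic dim replicate 2 (-0.22, adjusted p = 0.0531) or hypoxic bright replicate 1 (-0.22, adjusted p = 0.0586), and the ERO1A call without any 1 of the 6 normoxic libraries or replicate 2 of either hypoxic group (-0.59 to -0.45, adjusted p 0.0539 to 0.141). With limma, 0 of 18 passed for hypoxia in dim or bright cells or for the difference (4, 1 and 4 at an unadjusted p under 0.05). The shares of all genes were 0.232%, 0.837% and 2.36%.

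Of 17 other 2-oxoglutarate oxygenases outside chromatin, 3 were higher and 2 lower in bright cells under hypoxia, near the 26.5% of all genes. EGLN2, a HIF prolyl hydroxylase gene with overlapping read-through transcripts and so uncertain counts, was higher (means 133 and 58.7, 1.21 ± 0.26, adjusted p = 0.00545), as was HIF1AN, the HIF asparaginyl hydroxylase gene (0.40 ± 0.10, adjusted p = 0.0115). The HIF1AN call was lost without hypoxic dim replicate 2 (0.32, adjusted p = 0.0554). ASPHD1 (-2.08 ± 0.63, adjusted p = 0.0274) and ASPHD2 (-1.56 ± 0.50, adjusted p = 0.0352), named for likeness to aspartate hydroxylase, were lower. Those calls were lost without hypoxic dim replicate 1 or any 1 hypoxic bright library, and for ASPHD2 also without hypoxic dim replicate 2 (adjusted p 0.0506 to 0.122). With limma, 0 of 17 passed in normoxia, for hypoxia in dim or bright cells or for the difference (0, 3, 3 and 5 at an unadjusted p under 0.05). The shares of all genes were 6.66%, 0.232%, 0.837% and 2.36%.

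The substrates were read as 44 collagen chain genes, of which 30 were tested. Under hypoxia 1 was higher and 5 lower in bright cells, against 12.9% and 13.6% of all genes, COL6A5 higher (1.79, adjusted p = 0.000102) and COL21A1 (-3.19, adjusted p = 0.000139) and COL4A5 (-5.76, adjusted p = 0.000522) lower. COL6A5 and COL21A1 differed in the same direction in normoxia (1.58 and -3.72), where COL4A5 was higher in bright cells (4.91, adjusted p = 0.00268). These calls held when any 1 library was left out. For hypoxia 1 of 30 passed, COL4A5, as higher in dim (6.14, adjusted p = 0.0155) and as lower in bright cells (-4.53, adjusted p = 0.0288), against 0.199% and 0.359% of all genes. The former was lost without normoxic dim replicate 2 or 3 or hypoxic dim replicate 2 (adjusted p 0.0809 to 0.136), the latter without normoxic bright replicate 1 or 2 or hypoxic bright replicate 1 or 3 (adjusted p 0.0609 to 0.169).

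Hypoxia reference genes, 19 of them tested and 2 shared with the lists above, are given beside P4HA1. In bright cells 7 rose in hypoxia and 0 fell, against 0.478% and 0.359% of all genes, with a median log2 difference of 0.43. VEGFA, the angiogenic growth factor gene, rose by 0.67 ± 0.10 (adjusted p = 0.00813) and BNIP3 by 1.29 ± 0.21 (adjusted p = 0.0161). The VEGFA call was lost without hypoxic bright replicate 1 (0.64, adjusted p = 0.0787) and the BNIP3 call without normoxic bright replicate 2 or hypoxic bright replicate 1 or 2 (1.04 to 1.32, adjusted p 0.0556 to 0.0793). In dim cells 0 of 19 passed with limma (2 at an unadjusted p under 0.05), against 0.232% of all genes, with a median of 0.09. Under hypoxia 9 were higher in bright cells, against 12.9% of all genes, with KDM3A (0.61 ± 0.10, adjusted p = 0.00131) and VEGFA (0.51 ± 0.10, adjusted p = 0.00247) having the lowest adjusted p among them. CA9, the carbonic anhydrase gene, was lower (-5.48 ± 1.34, adjusted p = 0.00994, means 1.33 and 117), as was NDRG1, which was lower in bright cells at both oxygen levels (-0.61 and -0.69, adjusted p = 0.0217 and 0.0309). The CA9 call was lost without the pair of libraries highest in airway markers (-4.63, adjusted p = 0.0596), of which hypoxic dim replicate 2 had the highest CA9 value of the 12, 247, and its size ran from -7.76 with a pseudocount of 0.1 to -3.00 with one of 10. The NDRG1 calls were lost without hypoxic dim replicate 2 or hypoxic bright replicate 2 or 3 in hypoxia (adjusted p 0.0765 to 0.0988), and without any normoxic dim library or normoxic bright replicate 2 or 3 in normoxia (adjusted p 0.0655 to 0.133). KDM3A also passed for the difference between fractions (0.67 ± 0.14, adjusted p = 0.0335). That call was lost without normoxic dim replicate 2 or 3, normoxic bright replicate 2, replicate 2 of hypoxic dim or replicate 1 or 2 of hypoxic bright (adjusted p 0.0677 to 0.0925). Without the pair highest in airway markers, the calls under hypoxia of PDIA3, HIF1AN, ASPHD2 and NDRG1 were lost as well (adjusted p 0.0688 to 0.119), as were those of ERO1A in normoxia (adjusted p = 0.0976), COL4A5 for hypoxia in dim and bright cells (adjusted p = 0.178 and 0.151), BNIP3 for hypoxia in bright cells (adjusted p = 0.0878), and P3H3 and KDM3A for the difference (adjusted p = 0.169 and 0.162).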

How the data were processed

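mRNA from total RNA of sorted KG1a cells was sequenced as paired 150-base reads in 12 libraries, per the labels' protocols. Per the submitters' processing notes, Trimmomatic 0.39 and STAR 2.4.2a were used with hg38. How reads were counted, with which annotation and on which strand, is not given in the sources used here; antisense or overlapping reads are therefore uncertain. P4HA2, P4HA3, PLOD3 and LOXL2 share 545, 38, 27 and 124 exon bases with a gene on the opposite strand.

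The deposited values are a score that the authors made by dividing counts by a size factor and rounding, as read from the values, so no raw count test was run. The fit was made on log2(value + 1) by limma 3.58.1 under R 4.3.3 (4 group means, 8 residual degrees of freedom, mean trend), with Benjamini-Hochberg adjustment over 15057 genes within each of 5 comparisons and a threshold of 0.05, 2-sided. The fit was tested on simulated data with independent errors. Those data held no shift shared by many genes of a library, such as that of the airway markers. Errors are moderated standard errors.

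The 10 genes, the lists and the tests were chosen with earlier results of these data known. Beyond the 10 genes, up to 2 called genes per list, direction and comparison with the smallest adjusted p were picked. The 3 most correlated genes of each called gene of the set were picked as well. Calls picked by this rule but not given above were those of ESAM, PECAM1 and VWF, on a list of 8 endothelial markers. Nor are the calls given of CYP24A1, CEACAM6, EPCAM, KRT7 and KRT18 (airway list) and of CD34, CD7, CD38, PTPRC and KIT (progenitor list). Gene coordinates and lengths are those deposited with the values, and promoters are RefSeq's. The 2 sources place some starts apart. The PLOD2 window, up to 146161434, lies within the gene as deposited, which runs to 146161495. The matches of P4HA1 and some of those of LOX also lie within the genes as deposited. The libraries carry 1 batch label, so no batch split was possible.

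Alternatives were pseudocounts of 0.1 and 10, no filter, a mean of at least 50, 2 other scalings, no trend, a fit of only the groups compared, a block for the replicate number, an adjusted p under 0.01, each library left out, and the 2 libraries highest in airway or muscle markers left out.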

Additional observations from a re-analysis of the deposited data

Results flagged for a closer look

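Among the tested genes of the set and of the collagen, oxygenase, isomerase and hypoxia lists, 5 had an effect of hypoxia that differed between bright and dim cells by the test of the difference itself in limma. They were 1 of 10 in the set, 1 of 18 other collagen folding and modifying genes, 2 of 30 collagen chains and 1 of 19 hypoxia genes. It was 0 of 9 other lysyl oxidases and proteinases, 0 of 18 isomerases and oxidases and 0 of 17 other oxygenases. Of all 15057 genes 355 did (2.36%). P4HA1 had the higher hypoxia effect in bright cells, by 1.10 log2 units (adjusted p = 0.0410), and so did KDM3A, by 0.67 (adjusted p = 0.0335). P3H3 had the lower one by -4.07 (adjusted p = 0.0363), with values of 74, 40 and 20 in hypoxic dim and 8, 6 and 2 in hypoxic bright libraries. The linked basement membrane collagen genes COL4A5 and COL4A6 differed by -10.67 (adjusted p = 0.00123) and -7.67 (adjusted p = 0.0470). In the same comparison 7 of 13 airway markers passed as lower and 0 as higher, with a median of -8.11. The airway marker KRT18 was at 11, 6 and 4 in normoxic dim, 824, 1819 and 62 in normoxic bright, 506, 4099 and 1781 in hypoxic dim and 72, 381 and 4 in hypoxic bright libraries, so its high groups were those of COL4A5.

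COL4A5 was at 4, 1 and 0 in normoxic dim, 84, 110 and 28 in normoxic bright, 164, 205 and 102 in hypoxic dim and 1, 10 and 0 in hypoxic bright libraries, so the fraction with the higher value changed with oxygen. Without the pair of libraries highest in airway markers its adjusted p was 0.0539 at -10.07. The calls of P4HA1, P3H3, KDM3A and COL4A6 were lost in 8, 8, 6 and 7 of 12 leave-one-out fits, and that of COL4A5 in 0. For COL4A6 these were the fits without normoxic dim replicate 2 or 3, normoxic bright replicate 1 or 2, replicate 2 of hypoxic dim or replicate 1 or 3 of hypoxic bright (adjusted p 0.0533 to 0.130). With groups near 0 these sizes depend on the pseudocount, and COL4A5 lay between -13.57 and -6.34 over the settings other than leaving out 1 library.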

How the results depend on the processing

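Of 1185 values of the 10 genes under the alternatives, 1142 kept their sign and 1130 their call, 47 lost and 8 gained a call, and none turned a call round. Genes of the set passing for bright against dim in hypoxia (4) numbered 2 without a filter and 1 without the trend, at an adjusted p under 0.01 and without the airway pair (1 to 5 with 1 library left out). For hypoxia in bright cells (1) they numbered 0 without the trend, at 0.01 and without the airway pair (1 in every leave-one-out fit). For the difference (1) they numbered 0 with a pseudocount of 10, without a filter, at a mean of at least 50, without the trend, at 0.01 and without the airway or muscle pair (0 to 1 with 1 library left out). In normoxia and for hypoxia in dim cells (0) they numbered 1 without the muscle pair (0 to 1 with 1 left out).

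Over all genes, bright against dim in hypoxia (3994) gave 1901 at 0.01 and 2309 without the airway pair (2289 to 4347 with 1 left out, and 2289, 2466 and 2637 without hypoxic bright replicate 2, hypoxic bright replicate 1 and hypoxic dim replicate 2). In normoxia (1003) it gave 477 at 0.01, 585 without the airway pair and 636 without the muscle pair (611 to 1278, and 611, 640 and 642 without normoxic dim replicate 1, normoxic dim replicate 3 and normoxic bright replicate 2). The difference (355) gave 162 with a pseudocount of 10, 164 at a mean of at least 50, 43 without the trend, 30 at 0.01, 5 without the airway pair and 995 without the muscle pair (51 without hypoxic bright replicate 1 to 1520 without hypoxic dim replicate 3, within 1.5 times for normoxic bright replicate 3, hypoxic dim replicate 1 and hypoxic bright replicate 3 alone). Hypoxia in bright cells (126) gave 60 with a pseudocount of 10, 70 without a filter, 31 without the trend, 226 with only the groups compared, 20 at 0.01, 12 without the airway pair and 38 without the muscle pair (7 without hypoxic bright replicate 1 to 279 without hypoxic dim replicate 1, within 1.5 times for normoxic dim replicates 1 and 2 and hypoxic bright replicate 3 alone). Hypoxia in dim cells (35) gave 12 with a pseudocount of 0.1, 22 with 10, 12 at a mean of at least 50, 9 without the trend, 13 with only the groups compared, 1 at 0.01, 0 without the airway pair and 219 without the muscle pair (0 without hypoxic dim replicate 2 to 637 without hypoxic dim replicate 3, within 1.5 times for normoxic bright replicate 3, hypoxic dim replicate 1 and hypoxic bright replicates 2 and 3 alone). The cause of these moves was not tested.

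Samples sharing a replicate number did not deviate together in every pair of any 2 groups compared (correlations -0.478 to 0.451, median 0.037, over 18 pairs, against a median of 0.0235 over 36 other pairs). All 3 were above 0.1 for normoxic bright with hypoxic dim (0.114, 0.451 and 0.229), which were not compared. With the replicate block, 0, 4, 0, 1 and 1 of the 10 genes passed for bright against dim in normoxia and hypoxia, hypoxia in dim and bright cells and the difference, and 917, 3782, 60, 162 and 329 of all genes. P4HA3 has no value at a mean of at least 50. For the difference, which uses every group, the fit with only the groups compared is the same fit. P4HA3, with 3 libraries a group, rests on low values of 0 to 49.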
